A study of Mus musculus with 4 samples.

Results

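The autophagy genes were taken as every row of the deposited gene table whose symbol belongs to the core autophagy machinery: the Atg genes, Ulk1 and Ulk2, Rb1cc1, Becn1, Pik3c3, Pik3r4, Uvrag, the WIPI family with Wdr45 and Wdr45b, the Map1lc3 and Gabarap genes, the cargo receptors Sqstm1, Nbr1 and Optn, and the transcription factors Tfeb and Tfe3. This gave 40 members of 56239 genes, and the choice used names only, not measured values. The cells were CD4+CD8+ double-positive (DP) thymocytes, the immature T cell stage that carries both coreceptors, sorted from the thymus of C57BL/6 mice. KO mice carried Cd4-cre;CHAF1bfloxp/floxp and WT mice carried CHAF1bfloxp/floxp without Cre, so the floxed alleles were common to both groups and the transgene was carried only by KO mice. Each genotype had 2 RNA-seq libraries. The labels give neither ages nor the number of mice behind a library.

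Autophagy encloses cytoplasm in a double membrane and delivers it to lysosomes. A kinase complex around ULK1 starts the process, a lipid kinase complex with Beclin 1 marks the membrane with phosphatidylinositol 3-phosphate (PI3P), and a pair of ubiquitin-like conjugation reactions attaches LC3 and GABARAP proteins to the growing membrane, where cargo receptors dock. In T cells, mouse knockouts of core Atg genes have shown that the pathway is needed for survival and for clearing organelles as thymocytes mature. Chaf1b, the targeted gene, makes the p60 part of chromatin assembly factor 1, which deposits histones on newly copied DNA, and the comparison concerns the transcripts of DP thymocytes after its deletion. Cd4-cre acts in DP cells and in what descends from them, so a KO library can hold transcripts made before deletion.

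KO replicates 1 and 2 had 24688653 and 21068760 counts and WT replicates 1 and 2 had 23215539 and 27369874. Chaf1b itself stood at 12.2 and 14.8 CPM (counts scaled by library size with TMM factors, the unit of every level below unless stated) in KO libraries, against 27.9 and 31.7 CPM in WT libraries (edgeR adjusted p = 0.267 without a covariate and 0.0172 with a term for replicate number). By Xist and the Y-linked transcripts, replicate 1 was female and replicate 2 male in both genotypes, so differences are also given as a female pair and a male pair, the KO minus WT difference of log2 CPM between libraries of the same replicate number. All 12 DP markers were present, with a summed level of 17611 to 21506 CPM in KO libraries and 16823 to 16955 CPM in WT libraries. Sums for other cell types were 10.5 to 12.2 CPM in KO and 15.2 to 17.0 CPM in WT libraries for 7 macrophage and granulocyte markers, under 2 CPM for dendritic and erythroid markers, and 463 to 464 CPM in KO and 406 to 473 CPM in WT libraries for B cell markers, nearly all of it Ighm. Stromal markers summed to 8.03 to 8.19 CPM in KO and 8.78 to 8.995 CPM in WT libraries, and natural killer and gamma-delta T cell markers, mostly Trdc and Gzma, to 121 to 152 CPM in KO and 93.9 to 111 CPM in WT libraries. Liver transcripts, of which Alb is the most abundant, summed to 331 and 4.35 CPM in KO replicates 1 and 2 and to 316 and 68.7 CPM in WT replicates 1 and 2. They were higher in replicate 1 of both genotypes, and in replicate 2 the KO library was the lower one. KO replicate 1 stood apart in the share of counts from mitochondrially encoded genes, 3.30%, against 2.03% in KO replicate 2 and 1.335% and 1.45% in WT libraries. The part of this in the results below was not tested beyond the values without that library.

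No autophagy gene passed the threshold for a difference between KO and WT thymocytes, and most differences were small. Of the 40 members, 38 had enough counts to be tested. The largest difference below 0 was that of Atg16l2, a homologue of the LC3-conjugation scaffold Atg16l1, at 32.0 ± 9.39 CPM in KO libraries and 49.1 ± 3.14 CPM in WT libraries (SD, n = 2 each). The largest above 0 was that of Optn, a cargo receptor close to the detection limit here. The other 36 members had log2 fold changes between -0.5 and 0.5, which held for 94.7% of the tested members and for 76.5% of all tested genes.

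With edgeR's quasi-likelihood F test and no covariate, 0 of 38 members had an adjusted p under 0.05, against a background of 0.00664% of 15070 tested genes. A second edgeR fit added a term for replicate number (the sex-term fit) and also called 0 of 38 members, where the background was 3.21% of genes, 1.01% higher and 2.20% lower in KO. That term takes up sex and anything else that libraries of the same replicate number share, such as the liver transcripts higher in replicate 1. DESeq2 called 0 members in both designs, against 2.97% of all genes without a covariate (1.14% higher, 1.83% lower in KO) and 2.53% with the replicate term (0.849% higher, 1.69% lower). Limma-voom likewise called 0 members, against 0.00664% of all genes without a covariate and 3.69% with the replicate term (1.33% higher, 2.36% lower). At an unadjusted p under 0.05 edgeR gave 5 members without a covariate (13.2%), 1 higher and 4 lower in KO, against 16.8% of all genes, 8.14% higher and 8.69% lower. The sex-term fit gave 5 members, all lower in KO, against 21.4% of all genes, 9.67% higher and 11.7% lower. Both overall shares lay below the background.

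The members' median log2 fold change was 0.04 without a covariate and 0.02 in the sex-term fit, beside -0.00 over all tested genes. Their median absolute log2 fold change was 0.18, beside 0.26 over all tested genes. Among genes of like level the medians were closer: between 24.7 and 104 CPM the median absolute log2 fold change was 0.18 over 18 members and 0.19 over 4270 genes. The 95% confidence interval of the fold change stayed within 2-fold in either direction for 33 of 38 members in both fits (86.8%), against 61.0% of all genes without a covariate and 65.0% in the sex-term fit. Within the narrower bound of 1.5-fold lay the intervals of 25 members without a covariate and 23 in the sex-term fit. Larger differences than these bounds were therefore outside the intervals for those members, while smaller ones could not be told from 0 for all but 5 members in either fit.

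**Figure D1:**
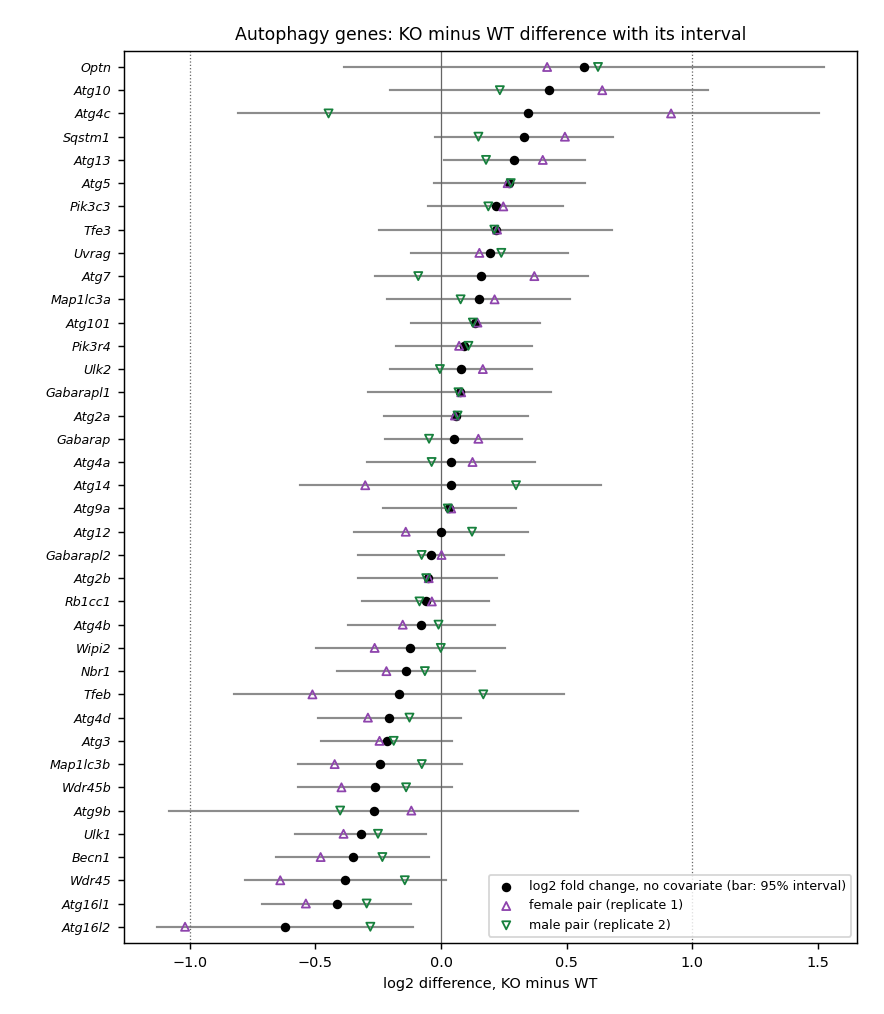
Log2 fold change, KO minus WT, of each tested autophagy gene on the horizontal axis, ordered by that value. Filled points are the edgeR fit without a covariate, bars its 95% confidence interval, and open triangles the female and male pair. Intervals of 33 of 38 genes stay within 2-fold, and Atg16l2 at -0.62 and Optn at 0.57 lie farthest from 0.

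Members whose libraries did not overlap between genotypes were about as frequent as in the rest of the transcriptome. Both KO libraries lay outside the range of both WT libraries for 22 of 38 members (57.9%), 10 above and 12 below, against 56.3% of all tested genes, 27.9% above and 28.4% below. Between the sexes the direction matched in 29 members, 14 higher in KO in both pairs and 15 lower in both. The share higher in both pairs was 36.8% of members and 35.5% of all genes, and the share lower in both was 39.5% of members and 36.7% of all genes. The size of the difference was larger in the female pair, which holds KO replicate 1, for 29 members (76.3%), and over all genes this share was 73.3%. Replicates differed less over the members than over all genes. The median absolute log2 difference between the KO libraries was 0.16 over members and 0.29 over all genes. That between the WT libraries was 0.07 over members and 0.13 over all genes. The members were also more abundant, with 86.8% of them above 10 CPM, beside 58.2% of all tested genes. Replicate differences were not compared among genes of like level, so a trait of the members cannot be told from their level.

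**Figure D2:**
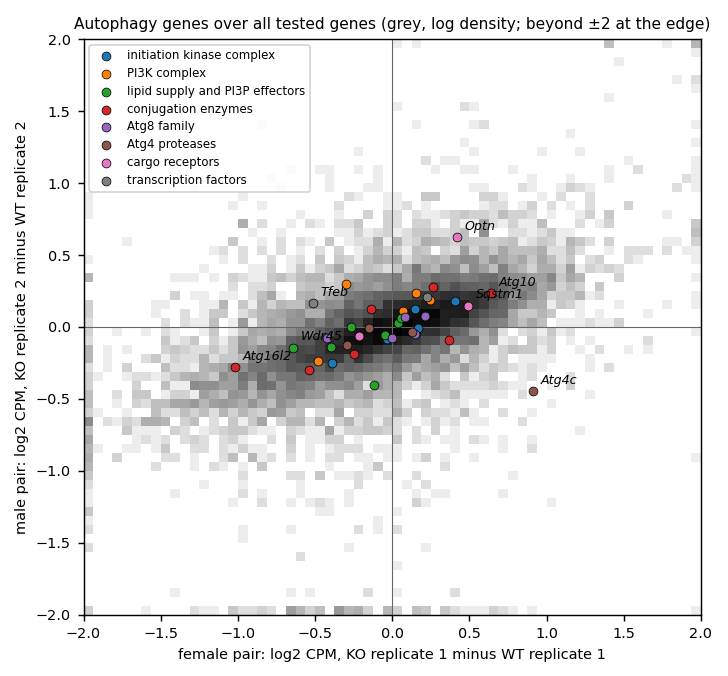
Difference of log2 CPM, KO minus WT, in the male pair against that in the female pair for the 38 tested autophagy genes, 1 coloured point per gene, over the log density of all tested genes in grey. Points in the upper right (14 genes) and lower left (15 genes) have the same sign in both pairs, and Atg16l2 has the largest difference below 0 in the female pair at -1.02.

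More members were called when KO replicate 2 was left out. Without KO replicate 2, so that KO replicate 1 alone stood for the KO group and was assumed to vary like the WT libraries, edgeR called 13 members, 3 higher (Sqstm1, Atg13 and Atg7) and 10 lower (Atg16l2, Wdr45, Atg16l1, Becn1, Map1lc3b, Wdr45b, Ulk1, Wipi2, Atg4d and Nbr1). In that fit 32.3% of all tested genes were called, 15.8% higher and 16.5% lower in KO. That setting also removes the spread between the KO libraries from the fit, and the weight of each cannot be told apart. Leaving out KO replicate 1 gave 0 members, where 3.31% of all genes were called (1.09% higher, 2.22% lower). Leaving out WT replicate 1 or WT replicate 2 also gave 0 members, where 0.0127% and 0.00634% of all genes were called in that order. KO replicate 1 is the library with the high mitochondrial share.

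The autophagy genes were expressed at a moderate level in DP thymocytes, and the cargo receptor Sqstm1 and the LC3 relative Gabarap led. Levels between genes are compared as CPM per kilobase of the deposited gene length, averaged over the 4 libraries. On that scale the median of tested members was 10.1, beside 5.22 over all tested genes. Sqstm1 averaged 61.2 and Gabarap 53.6 CPM per kilobase, and their ranges over the 4 libraries overlapped. Next came Atg101 at 31.2, Nbr1 at 30.3, Map1lc3b at 27.9 and Gabarapl2 at 24.6 CPM per kilobase, each overlapping its neighbours in this run and all below Gabarap in every library. Summed over all 40 members, the level was 2539 and 2635 CPM in KO libraries and 2663 and 2665 CPM in WT libraries. In bulk samples, fewer cells of a type and less RNA per cell cannot be told apart.

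**Figure D3:**
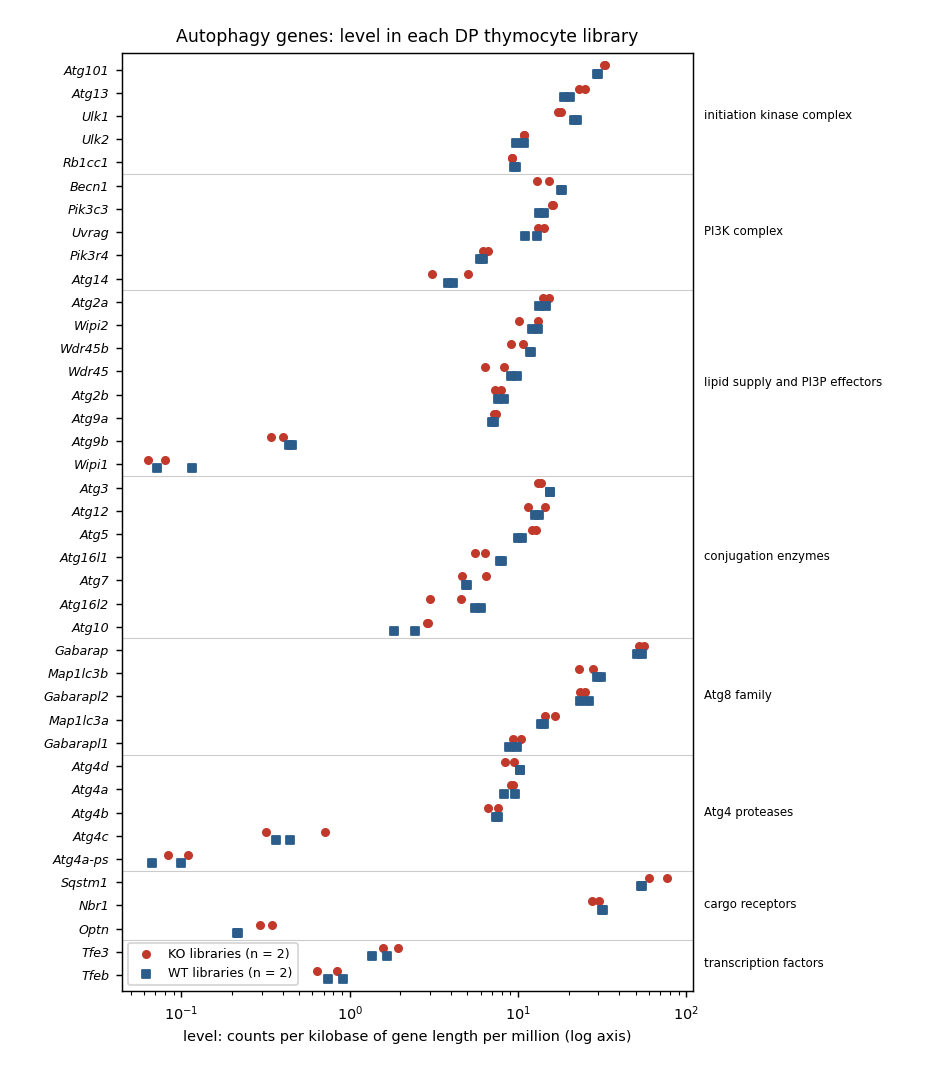
Level of each of the 40 autophagy genes as CPM per kilobase of gene length on a log axis, with 1 point per library, KO and WT marked separately, and genes grouped by role. Sqstm1 and Gabarap stand highest, at a mean of 61.2 and 53.6, and Wipi1 and the pseudogene Atg4a-ps lowest, at 0.082 and 0.090.

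The initiation complex had 5 members, and the kinase Ulk1 and its partner Atg13 stood on opposite sides of 0. Ulk1 (chr5:110784488-110810097, minus strand, GRCm38, as all coordinates here), the kinase that starts autophagosome formation, had 112 and 117 CPM in KO libraries, against 146 and 139 CPM in WT libraries. Both KO libraries lay below both WT libraries, and the log2 fold change was -0.32 ± 0.11 (SE; 95% interval -0.58 to -0.06; edgeR adjusted p = 0.267 without a covariate and 0.214 in the sex-term fit). Atg13 (chr2:91674618-91710576, minus strand), the adaptor that holds the complex together, had 109 and 100.3 CPM in KO libraries, against 82.2 and 88.6 CPM in WT libraries. Here both KO libraries were the higher ones, with a log2 fold change of 0.29 ± 0.11 (95% interval 0.01 to 0.57; edgeR adjusted p = 0.289 and 0.244 in the sex-term fit).

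The remaining subunits lay closer to 0. Rb1cc1 (FIP200), the large scaffold of the complex, had 135 and 135 CPM in KO libraries, against 139 and 143 CPM in WT libraries, both KO libraries being lower, with a log2 fold change of -0.06 and a 95% interval of -0.31 to 0.19. Atg101, which stabilises Atg13, had 52.1 and 52.2 CPM in KO libraries, against 47.1 and 47.8 CPM in WT libraries, a log2 fold change of 0.14 with an interval of -0.12 to 0.39. Ulk2, the second ULK kinase, had 65.3 and 64.6 CPM in KO libraries, against 58.2 and 64.8 CPM in WT libraries, and the groups overlapped. Of the reads per kilobase of both ULK kinases, Ulk1 took 61.2% and 62.5% in KO libraries, against 69.8% and 66.4% in WT libraries. Over the whole complex the summed level was 473 and 469 CPM in KO libraries and 472 and 483 CPM in WT libraries.

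In the lipid kinase complex, Becn1 was the lower one and its catalytic partner Pik3c3 the higher one in KO libraries. Becn1 (chr11:101285952-101302286, minus strand), which encodes the Beclin 1 scaffold, had 91.9 and 109 CPM in KO libraries, against 128 and 128 CPM in WT libraries. The groups did not overlap, and the log2 fold change was -0.35 ± 0.12 (95% interval -0.66 to -0.05; edgeR adjusted p = 0.271 and 0.171 in the sex-term fit). Exons of Becn1 overlap those of its neighbour Cntd1 over 43.9% of its length, and reads there entered neither count, so its level is uncertain. Pik3c3 on chromosome 18, the kinase that makes PI3P, had 70.9 and 72.5 CPM in KO libraries, against 59.7 and 63.6 CPM in WT libraries. Its log2 fold change was 0.22 (95% interval -0.05 to 0.49; edgeR adjusted p = 0.350), with pair differences of 0.25 (female) and 0.19 (male). Pik3r4, the regulatory subunit, and Uvrag, the subunit of the endosomal form of the complex, lay above WT in both KO libraries with log2 fold changes of 0.09 and 0.19. Atg14, which directs the complex to autophagosome formation, overlapped between groups. Of the reads per kilobase of these 5 genes, Becn1 took 24.8% and 27.3% in KO libraries, against 33.5% and 33.7% in WT libraries.

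Among the 8 genes of lipid supply and PI3P binding, 7 were tested and none lay above WT in both KO libraries. Wdr45 (chrX:7714333-7728206, plus strand), which encodes the PI3P-binding WIPI4, had 20.99 and 27.3 CPM in KO libraries, against 32.7 and 30.2 CPM in WT libraries. The KO libraries were the lower ones, with a log2 fold change of -0.38 ± 0.16 (95% interval -0.78 to 0.02; edgeR adjusted p = 0.305 and 0.217 in the sex-term fit), and 24.7% of its exon length overlaps the model Gm45208. Its relative Wdr45b (WIPI3) and Atg9b, a low-expressed paralogue of the lipid scramblase Atg9a, also lay below WT, with log2 fold changes of -0.26 and -0.27. Wipi2, which recruits ATG16L1 to PI3P, had 107 and 138 CPM in KO libraries, against 128 and 139 CPM in WT libraries. KO replicate 1 alone was the low one there, and the log2 fold change was -0.12 (95% interval -0.50 to 0.25). Atg9a had 41.4 and 42.5 CPM in KO libraries, against 40.3 and 41.7 CPM in WT libraries, with a log2 fold change of 0.03 and a 95% interval of -0.23 to 0.30; 32.6% of its exon length overlaps other genes. The lipid transfer proteins Atg2a and Atg2b overlapped between groups. Wipi1 was not tested, at 8 and 6 counts in KO libraries and 12 and 9 counts in WT libraries.

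The log2 fold changes of the 7 conjugation enzymes ran from -0.62 (Atg16l2) to 0.43 (Atg10), with the Atg16l genes below 0. Atg16l2 (chr7:101263034-101302251, minus strand) had 25.3 and 38.6 CPM in KO libraries, against 51.4 and 46.9 CPM in WT libraries. Both KO libraries were lower, KO replicate 1 by more. The log2 fold change was -0.62 ± 0.21 (95% interval -1.13 to -0.11; edgeR adjusted p = 0.267), and the sex-term fit gave -0.65 ± 0.18 with an adjusted p of 0.0701, the smallest of any member. The female pair differed by -1.02 and the male pair by -0.28. When genes of low counts were kept in the test, Atg16l2 passed the threshold in both fits, as 5.63% of all genes then did without a covariate (2.41% higher, 3.22% lower) and 5.85% in the sex-term fit (2.14% higher, 3.71% lower).

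Atg16l1 (chr1:87755870-87792428, plus strand), the scaffold that sets where LC3 is conjugated, had 53.5 and 61.1 CPM in KO libraries, against 77.7 and 75.1 CPM in WT libraries. This gave 57.3 ± 5.40 CPM in KO and 76.4 ± 1.86 CPM in WT (SD, n = 2 each), with no overlap. The log2 fold change was -0.41 ± 0.12 (95% interval -0.71 to -0.12; edgeR adjusted p = 0.267 and 0.115 in the sex-term fit), and the pairs differed by -0.54 and -0.30. Per kilobase, Atg16l1 took 65.0% and 58.2% of the reads of both Atg16l genes in KO libraries, against 57.1% and 58.5% in WT libraries.

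The enzymes that act with this scaffold did not all share its direction. Atg5 (chr10:44268358-44364291, plus strand), which forms the conjugate with ATG12 that ATG16L1 carries, had 28.3 and 30.0 CPM in KO libraries, against 23.5 and 24.7 CPM in WT libraries. Its log2 fold change was 0.27 ± 0.12 (95% interval -0.03 to 0.57; edgeR adjusted p = 0.316), nearly equal in the female (0.26) and male (0.28) pair. Atg12 had the log2 fold change nearest to 0 of all members, 0.00 with a 95% interval of -0.35 to 0.35. Atg7, the activating enzyme of both reactions, had 44.7 and 32.2 CPM in KO libraries, against 34.5 and 34.3 CPM in WT libraries, so that the KO libraries lay on either side of WT. Atg3, the enzyme that transfers LC3 to lipid, had 41.4 and 43.1 CPM in KO libraries, against 49.1 and 49.1 CPM in WT libraries, a log2 fold change of -0.22 with a 95% interval of -0.48 to 0.04. Atg10, the corresponding enzyme for ATG12, was low, at 4.98 and 4.95 CPM in KO libraries, against 3.16 and 4.20 CPM in WT libraries.

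**Figure D4:**
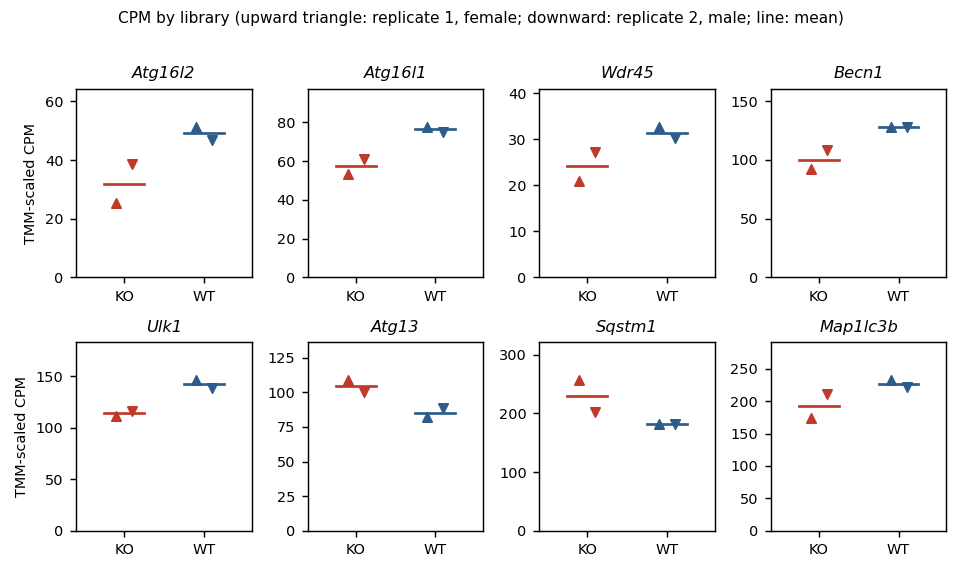
CPM of 8 autophagy genes in each library, KO left of WT, with 1 triangle per library (upward for replicate 1, downward for replicate 2) and a line at the mean of each genotype. Atg16l2, Atg16l1, Wdr45, Becn1, Ulk1 and Map1lc3b have both KO points below both WT points, and Atg13 and Sqstm1 have both above. All 8 were picked from the members with non-overlapping groups, which made up 57.9% of tested members. Over all tested genes that share was 56.3%.

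Of the 5 LC3 and GABARAP genes, which encode the ubiquitin-like proteins coupled to the membrane, Map1lc3b lay below and Map1lc3a above WT in both KO libraries. Map1lc3b (chr8:121590361-121598760, plus strand), the LC3 most used as an autophagosome marker, had 173 and 210 CPM in KO libraries, against 232 and 222 CPM in WT libraries. The log2 fold change was -0.24 ± 0.13 (95% interval -0.57 to 0.08; edgeR adjusted p = 0.374 and 0.389 in the sex-term fit), with pair differences of -0.42 (female) and -0.08 (male). Gabarap had 104 and 97.1 CPM in KO libraries, against 93.7 and 100.4 CPM in WT libraries, and Gabarapl2 had 54.6 and 58.2 CPM in KO libraries, against 54.6 and 61.4 CPM in WT libraries. Both overlapped between groups, with log2 fold changes of 0.05 (95% interval -0.22 to 0.32) and -0.04 (95% interval -0.33 to 0.25). Gabarap gave 43.7% and 40.3% of the family's reads per kilobase in KO libraries, against 39.6% and 40.6% in WT libraries. The Atg4 proteases, which trim these proteins before and free them after conjugation, had 4 tested members with log2 fold changes between -0.21 (Atg4d) and 0.35 (Atg4c). Atg4d was the 1 protease whose groups did not overlap, lower in KO libraries, with 19.3% of its exon length shared with Kri1. Atg4a-ps, a pseudogene row caught by the name pattern, had at most 5 counts in any library and was not tested.

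The cargo receptors tie ubiquitin-tagged material to LC3. Sqstm1 (chr11:50199366-50210827, minus strand), which encodes p62, had 257 and 201 CPM in KO libraries, against 182 and 182 CPM in WT libraries. Both KO libraries were higher, and they differed from each other by more than KO replicate 2 differed from WT. The log2 fold change was 0.33 ± 0.14 (95% interval -0.02 to 0.69; edgeR adjusted p = 0.309 and 0.263 in the sex-term fit), with pair differences of 0.49 (female) and 0.15 (male), and 17.3% of its exon length overlaps Mrnip. Nbr1, a related receptor, had 188 and 209 CPM in KO libraries, against 219 and 218 CPM in WT libraries, on the other side of 0 with a log2 fold change of -0.14 (95% interval -0.41 to 0.14). Optn had 1.10 and 1.30 CPM in KO libraries, against 0.802 and 0.811 CPM in WT libraries. The interval of its log2 fold change, -0.39 to 1.52, was among the widest of the members.

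Tfeb and Tfe3 encode basic helix-loop-helix factors that switch on lysosome and autophagy genes when they enter the nucleus, a step that transcript levels do not show. Tfeb had 3.62 and 4.77 CPM in KO libraries, against 5.19 and 4.23 CPM in WT libraries, with overlap, a log2 fold change of -0.17 and a 95% interval of -0.82 to 0.49. Tfe3 was the more abundant of the pair, with 14.6 and 17.9 CPM in KO libraries, against 12.5 and 15.5 CPM in WT libraries, also with overlap.

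These factors bind the CLEAR element, whose core is the E-box CACGTG; the full element was searched as that core with GT before and AC after it, on both strands, so each full match would also hold a core. The promoter stretches that hold the core in members are shown because they are where such a factor could bind. The log2 fold changes of the genes that carry them were not all of 1 sign, but each 95% interval included 0. Promoters here are RefSeq sequences on GRCm38.p6, from 250 bases before to 50 after a RefSeq start, which can differ from the start in the deposited annotation. For Atg7 and Atg14 the stretch shown lies inside the deposited gene. The 5′ end of that gene is at 114643097 for Atg7 and at 47570649 for Atg14. They were found for 32 of 40 members, as 38 promoters. The core, which reads the same on both strands, was in 4 of 38 member promoters (10.5%), beside 9.68% of 12737 promoters of tested genes, and the full element was in 0 of 38, beside 0.683%. The stretches below run 5′ to 3′ on the strand of the gene, with each core in capitals, and end before the start except in Atg14, whose core spans it; Atg3 has it 2 times.
Atg3 (chr16:45158675-45158803, plus strand): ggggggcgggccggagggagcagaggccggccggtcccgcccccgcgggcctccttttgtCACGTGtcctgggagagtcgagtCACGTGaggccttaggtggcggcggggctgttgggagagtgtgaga
Atg5 (chr10:44268265-44268338, plus strand): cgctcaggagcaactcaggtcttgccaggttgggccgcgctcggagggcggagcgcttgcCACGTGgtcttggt
Atg7 (chr6:114670904-114671009, plus strand): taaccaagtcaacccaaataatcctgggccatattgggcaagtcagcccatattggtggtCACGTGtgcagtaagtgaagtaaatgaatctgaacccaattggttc
Atg14 (chr14:47568430-47568495, minus strand): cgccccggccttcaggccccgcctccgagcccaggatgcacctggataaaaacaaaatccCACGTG

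The first base of the core lies 94 and 71 bases before the RefSeq start in Atg3, 14 in Atg5, 132 in Atg7 and 1 in Atg14. With only the bases before the start searched, the core was in 3 of 38 member promoters (7.89%), beside 8.08% of those of tested genes. The log2 fold changes of these genes were -0.22 for Atg3, 0.27 for Atg5, 0.16 for Atg7 and 0.04 for Atg14, none past the threshold and not all of 1 sign. A letter match describes the sequence and does not show binding.

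The wider pathway was described with 73 further genes in 8 role groups, of which 67 were tested, and here 4 genes passed the threshold in the sex-term fit (5.97%, against 3.21% of all genes). None passed without a covariate in edgeR, where 19 of 67 had an unadjusted p under 0.05 (28.4%, against 16.8% of all genes), while DESeq2 without a covariate called 1, lower in KO. Both KO libraries lay outside both WT libraries for 46 of 67 genes (68.7%, against 56.3% of all genes), 28 above and 18 below. The list was chosen with earlier results of these data known, so these shares only describe it. They were not tested or compared with genes of like level. The 67 tested genes had a median log2 fold change of 0.08. By pair, their median difference was 0.14 (female) and -0.01 (male). For 57 of these genes the female pair, with KO replicate 1, differed by more than the male pair. Over all tested genes this held for 73.3%. The part of KO replicate 1 in the shares above was not tested.

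Of those that passed, 3 fell in KO. Zkscan3, a zinc-finger repressor of autophagy and lysosome genes in human cell studies, had 85.0 and 82.3 CPM in KO libraries, against 150 and 149 CPM in WT libraries. The KO libraries agree within a few CPM, and the log2 fold change was -0.84 ± 0.14 in the sex-term fit (edgeR adjusted p = 0.0194) and -0.84 ± 0.10 without a covariate (adjusted p = 0.267), with pair differences of -0.82 (female) and -0.86 (male). Mcoln1, the lysosomal calcium channel whose opening leads to TFEB activation, had 28.6 and 51.8 CPM in KO libraries, against 63.6 and 68.8 CPM in WT libraries (log2 fold change -0.78, edgeR adjusted p = 0.0393 in the sex-term fit). Vps16, a core subunit of the HOPS and CORVET tethers that join membranes to lysosomes, had 59.0 and 82.5 CPM in KO libraries, against 106 and 107 CPM in WT libraries (log2 fold change -0.61, edgeR adjusted p = 0.0496 in the sex-term fit). In both genes KO replicate 1 was the lowest library, and the female pair differed by more than the male pair (-1.15 and -0.41 for Mcoln1, -0.84 and -0.37 for Vps16). Without KO replicate 1, in the fit with no covariate, the log2 fold changes were -0.86 for Zkscan3, -0.35 for Mcoln1 and -0.36 for Vps16, with edgeR adjusted p-values of 0.00477, 0.0824 and 0.0665 in that order.

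Foxo1, a forkhead factor that drives autophagy genes in several tissues, rose in KO in the sex-term fit. It had 107 and 61.2 CPM in KO libraries, against 52.2 and 47.6 CPM in WT libraries (log2 fold change 0.70, edgeR adjusted p = 0.0442 in the sex-term fit). KO replicate 1 was the high library, and without it the log2 fold change was 0.30 (edgeR adjusted p = 0.116, no covariate). Foxo1 is also among the markers used here for mature single-positive thymocytes. Among the others, Ccr7 had 7.63 and 5.74 CPM in KO libraries, against 6.16 and 3.49 CPM in WT libraries, Klf2 had 4.10 and 3.15 CPM in KO libraries, against 4.47 and 3.21 CPM in WT libraries, and S1pr1 and Il7r were at most 1.06 CPM. Their part in the Foxo1 difference was not tested.

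The other role groups held no called gene, apart from fusion (Vps16) and the transcriptional regulators (Zkscan3, Mcoln1 and Foxo1). As background for the counts that follow, both KO libraries lay above WT for 27.9% and below for 28.4% of all tested genes. A group of kinases, made of AMPK subunits, the AMPK kinase gene Stk11, Tbk1 and Ulk3, had 9 tested genes. Of these, 8 had a log2 fold change below 0, 7 lay below WT in both KO libraries and 1 above. Their median was -0.40, with 0 called in either fit. Each of these kinase genes differed by more in the female pair, which holds KO replicate 1, than in the male pair. Prkaa2 was at most 0.564 CPM, and 43.7% of the exon length of Prkag1 overlaps B130046B21Rik. Of 13 further cargo receptors, 6 lay above and 1 below WT in both KO libraries. Of 14 fusion genes 6 lay above and 4 below, and of 9 membrane supply genes 3 lay above and 3 below. PI3K complex regulators gave 3 of 6 above, and stress-linked genes 4 of 7 above, with 0 below in either group.

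**Figure D5:**
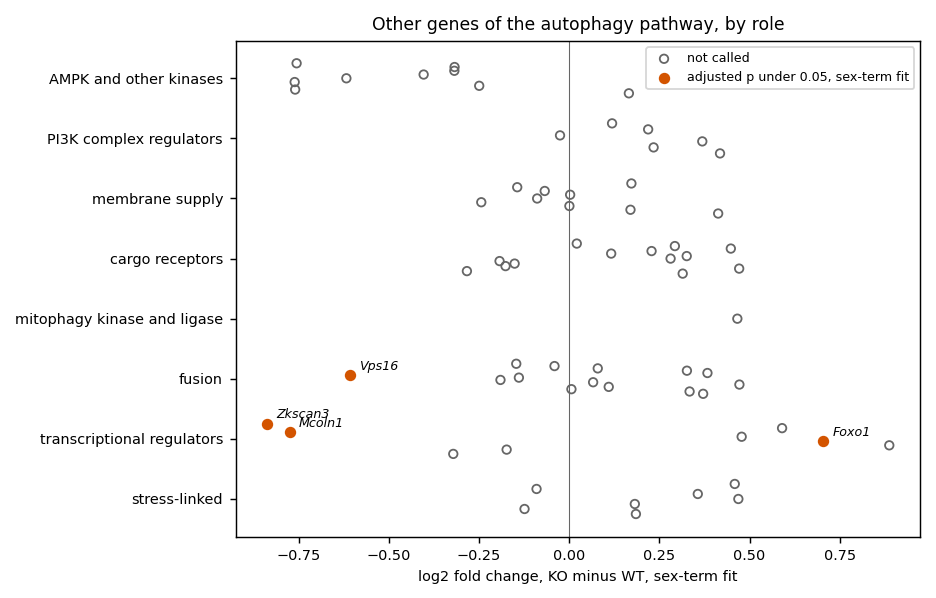
Log2 fold change, KO minus WT, in the sex-term fit for the 67 tested genes of the wider pathway by role group, 1 point per gene, with the 4 genes past the threshold in the sex-term fit marked by name. The group of AMPK and other kinases lies mostly below 0, and Zkscan3 at -0.84 is the lowest called gene.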

How the data were processed

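Per the labels' protocols, RNA was poly-T selected and the library kit was not strand-specific. The authors deposited raw fragment counts; per the file headers the counter was featureCounts 1.6.3 (1.6.4 per the submitters' processing notes), run over exons of Ensembl 98 on GRCm38, without strand; fragments that map to several places or overlap several genes were left out. The notes also list FastQC, Trim Galore 0.5.0, HISAT2 and DESeq2. The deposited gene lengths are in bases and were used for levels per kilobase.

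Symbols were found for 55240 of 56239 IDs (98.2%); the other 999 held up to 0.0033% of a library. The tests ran in edgeR 4.0.16 (R 4.3.3). Its filterByExpr left 15070 genes with at least 99.9% of each library's counts, TMM factors were 0.919 to 1.04, and differences (KO minus WT) were tested by quasi-likelihood F test, adjusted by Benjamini-Hochberg over all tested genes, at 0.05. The test without a covariate has 2 residual degrees of freedom and the sex-term fit 1. edgeR draws each gene's variance towards that of other genes. Its p-values and intervals therefore rest on more degrees of freedom than these, the rest borrowed from other genes. Log2 CPM used a prior count of 2. DESeq2 1.42.0 and limma 3.58.1 (voom) were alternatives. The edgeR step was tested on simulated counts.

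Library totals ran from 21068760 to 27369874; a count of 0 allows up to 3 counts, or 0.110 to 0.142 CPM, counting error only. Replicates were separate libraries (chi-square per degree of freedom over genes 51.2 between KO and 11.3 between WT libraries). The p-values measure only the spread between these libraries, in part that of other genes. Per-sample columns left unused numbered 0. Named members were those past the threshold, those with non-overlapping groups and an unadjusted p under 0.05 in either fit at 1 CPM or more, the 6 highest per kilobase and 13 fixed core genes; other pathway genes were named when called. Atg3, Atg14, Atg10, Optn, Tfe3, Ulk2 and other members are named outside that rule to account for every step, after their values were seen. The members, lists and fits were chosen with earlier results of these data known. The marker list for mature single-positive thymocytes is not reported in full here.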

Additional observations from a re-analysis of the deposited data

Results flagged for a closer look

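For 9 members the female and the male pair differed in direction, each pair being 1 KO and 1 WT library, and the difference between the sexes was not tested. In log2 CPM, KO minus WT, Atg4c differed by 0.92 (female) and -0.45 (male), at a level of 1.06 to 2.38 CPM. Atg14 differed by -0.30 (female) and 0.30 (male), and Tfeb by -0.51 and 0.17 in the same order. Atg7 gave 0.37 (female) and -0.09 (male), Atg12 gave -0.14 and 0.12, and Gabarap gave 0.15 and -0.05. The other 3 were smaller: Ulk2 at 0.17 and -0.005, Atg4a at 0.13 and -0.04, and Gabarapl2 at 0.002 and -0.08. The female pair holds KO replicate 1, the library with the highest mitochondrial share. Sex, that library and whatever else a replicate number shares cannot be told apart.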

How the results depend on the processing

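In the test without a covariate the count of members called stayed at 0 under every other setting tried except 2: without the filter on low counts it was 1 lower (Atg16l2), and with a library left out it ran from 0 to 3 higher and from 0 to 10 lower. The sex-term fit called 1 lower without the filter and 1 lower at an adjusted p under 0.1, both Atg16l2. The members' median log2 fold change was -0.044 with library totals in place of TMM, a scaling that moved the median of all genes to -0.08, and -0.012 to 0.051 with a library left out. Library totals also turned Gabarap to -0.034 and Atg9a to -0.047. With a library left out, 4 of the 19 members followed in this way changed sign: Gabarapl2 ran from -0.12 to 0.051, Wipi2 from -0.33 to 0.059, Atg7 from -0.092 to 0.37 and Tfeb from -0.38 to 0.024, the turned sign coming without KO replicate 1, and for Gabarapl2 also without WT replicate 2 (the cause was not tested).

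For the other pathway genes, the test without a covariate called 7 higher and 6 lower with no filter, 1 lower with DESeq2, and 0 to 23 higher and 0 to 15 lower with a library left out (the most without KO replicate 2). In the sex-term fit, which called 1 higher and 3 lower, the counts were 0 higher and 1 lower with library totals or with a robust dispersion, 0 higher with DESeq2, 6 lower with no filter, 6 lower when the threshold was 0.1, and 0 in both directions when it was 0.01. Zkscan3 stayed called in the sex-term fit under each setting at 0.05; Vps16, Foxo1 and Mcoln1 each lost the call under at least library totals and the robust dispersion. Over all genes, the test without a covariate called 1 higher and 0 lower. This became 627 and 838 with no filter and 172 and 276 with DESeq2. The sex-term fit called 152 higher and 331 lower over all genes. This became 26 and 119 with library totals, 29 and 47 with a robust dispersion, and 556 and 965 with no filter. DESeq2 with the replicate term gave 128 and 254. A threshold of 0.1 in the sex-term fit gave 426 and 743, and a threshold of 0.01 gave 5 and 2.

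The labels do not say what a replicate number shares, and with 2 pairs it does not establish pairing; deviations of same-numbered libraries correlated at 0.472 over 15070 genes and at -0.205 over the 38 members. With the replicate block, 0 members were higher and 0 lower, the members' median was 0.02, and 1 other pathway gene was higher and 3 lower; with no replicate block these were 0 and 0. With a library left out the block leaves no residual degrees of freedom, so it was not run there. Depth limits Optn, Atg9b, Atg4c, Wipi1 and Atg4a-ps, all under 3 CPM.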
